A study of Homo sapiens with 16 samples.

Results

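Among the surface receptors of T cells, 9 genes for costimulatory and inhibitory receptors were examined: CD28, ICOS, CTLA4, PDCD1, BTLA, CD226, TIGIT, CD5 and CD6. They were taken by their GENCODE symbols from 58295 genes in the files, as a list of names set with earlier results of these data known. Of these 9, 8 passed the filter on low counts that left 18073 genes for testing, and TIGIT did not. The libraries came from JSL1, a clone of the Jurkat line, which is a human T cell leukaemia line in long use as a model of T cell receptor signalling. The study asked what the splicing of exon 9 of HDAC7, a class IIa histone deacetylase that represses transcription in thymocytes and T cells, does to gene expression. Polyadenylated RNA was sequenced from 16 libraries.

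The edited lines, made with CRISPR-Cas9, were iE9, set to keep exon 9 of HDAC7, and dE9, set to lack it. The unedited JSL1 cells are called WT. Each line was grown with 20 ng/mL PMA (phorbol 12-myristate 13-acetate, a phorbol ester that switches on protein kinase C without engaging a receptor) or in growth medium alone. The labels give 48 h for libraries of both treatments, whereas the series' design text sets 48 h of PMA against a baseline at 0 h. The 6 groups were iE9 with PMA (3 libraries), iE9 unstimulated (3), dE9 with PMA (3), dE9 unstimulated (3), WT with PMA (2) and WT unstimulated (2). The number of clones behind each edited line, and whether replicates were separate cultures, are not stated in the sources used, so p-values may measure technical spread only.

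Libraries held 14536521 to 21888846 estimated counts. The share of HDAC7 transcripts with exon 9 was 42.3% to 74.8% in libraries labelled iE9, 0% to 7.37% in those labelled dE9 and 43.1% to 53.8% in WT. The libraries labelled iE9 and WT therefore overlapped in exon 9 share with PMA (42.3% to 63.0%, against 43.1% to 53.8% in WT with PMA). Total HDAC7 differed between lines as well. By edgeR's quasi-likelihood F test, unstimulated iE9 was higher by a log2 fold change of 1.66 over dE9 (adjusted p = 0.00224) and 1.70 over WT (0.00698). With PMA the values were 0.90 over dE9 (0.0393) and 0.54 over WT (0.328). The part of total HDAC7 in the line differences below was not tested. All 8 markers of the T cell list were detected in every library. Mitochondrial genes took 9.17% and 12.8% of the counts in the iE9 libraries numbered 1, against 3.00% to 6.39% in the other libraries. On the first principal component of all tested genes, the unstimulated iE9 libraries lay between −55.8 and −27.1. The other unstimulated libraries lay lower, from −92.0 to −75.8, and the PMA libraries higher, from 27.97 to 96.8.

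A T cell responds fully only when its antigen receptor and a costimulatory receptor are engaged together, and inhibitory receptors limit that response. CD28, the main costimulatory receptor, and ICOS, its inducible relative, recruit phosphoinositide 3-kinase. CTLA4, an inhibitory relative of CD28, competes with it for CD80 and CD86. PDCD1 (PD-1) and BTLA are inhibitory receptors that recruit SHP phosphatases, BTLA on binding TNFRSF14 (HVEM). CD226 (DNAM-1) activates and TIGIT inhibits, and both bind PVR and NECTIN2. CD5 and CD6 are scavenger receptor family proteins that tune antigen receptor signalling, and CD6 binds ALCAM. Phorbol esters act below these receptors and switch on AP-1 factors.

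Several of the genes lie side by side. On chromosome 2 (GRCh38), CD28 (chr2:203706475-203738912), CTLA4 (chr2:203867771-203873965) and ICOS (chr2:203936748-203961577) run on the plus strand, 129 kb and 62.8 kb apart. PDCD1 lies farther along the same chromosome, on the minus strand (chr2:241849881-241858908). CD6 (chr11:60971680-61020377) and CD5 (chr11:61102395-61127852) are neighbours on the plus strand, 82.0 kb apart. BTLA (chr3:112463968-112499561, minus strand) and TIGIT (chr3:114276913-114310288, plus strand) share chromosome 3, and CD226 lies on chromosome 18 (chr18:69831158-69961803, minus strand). CD226 overlaps DOK6, which lies on the opposite strand. Whether counting used strand is not given in the sources used here, so reads of the pair may not be separable.

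Promoter windows from RefSeq (GRCh38.p14), 250 bases before to 50 after each start site, were matched for 7 of the 9 genes, in 8 windows. Stretches are shown for CD28 and BTLA, which had the largest log2 responses to PMA in WT, and for the AP-1 match in CD226. The AP-1 motif TGANTCA, searched on both strands, occurred in 1 of the 8 windows, that of CD226, and in 7.71% of 35116 windows of all genes. The MEF2 consensus, searched on both strands because MEF2 factors are the best known partners of class IIa histone deacetylases, occurred in 2 of the 8, those of CD28 and TIGIT, and in 2.99% of all. The windows with these matches in CD226 and TIGIT lie inside the gene coordinates given above, at internal RefSeq start sites. A match of letters is a description of the sequence and not a measured site. The CD28 and BTLA stretches below are the parts of the windows outside annotated exons, with the MEF2 match in capitals at 185 bases before the RefSeq start of CD28. The CD226 stretch is the AP-1 match, in capitals, 212 bases before the RefSeq start, with 10 bases on each side.
CD28, chr2:203706389-203706474, plus strand: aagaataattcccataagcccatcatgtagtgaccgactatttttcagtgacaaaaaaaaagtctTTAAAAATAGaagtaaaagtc
BTLA, chr3:112499562-112499722, minus strand: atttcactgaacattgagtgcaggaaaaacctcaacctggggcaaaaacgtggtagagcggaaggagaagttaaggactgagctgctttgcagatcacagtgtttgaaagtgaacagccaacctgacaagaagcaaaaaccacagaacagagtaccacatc
CD226, chr18:69956995-69957021, minus strand: gaaatattagTGATTCActtcagttgc

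Levels per transcript length, in TPM (transcripts per 1000000 transcripts, as deposited and summed per gene), ordered the genes differently with and without PMA. With PMA, CD28 had the highest mean in each line, at 295 ± 100.5 TPM in iE9, 186 ± 143 TPM in dE9 (SD, n = 3 each) and 146 ± 18.3 TPM in WT (n = 2). Its libraries overlapped those of CD226, next in order, in dE9 and WT, but not those of CD5, next in iE9. Unstimulated, CD5 had the highest mean in each line, at 54.7 ± 25.2 TPM in iE9, 22.4 ± 20.1 TPM in dE9 and 19.5 ± 3.82 TPM in WT. The CD5 libraries overlapped those of the next gene in iE9 (CD28) and dE9 (CD226), but not in WT (CD226). In iE9 with PMA the order was CD28, CD5, BTLA, CD226, CD6, ICOS, PDCD1, CTLA4 and TIGIT. There CD5, BTLA and CD226 each overlapped the next gene in order, down to CD6, with means of 136, 121 and 118 TPM for these genes and 68.4 TPM for CD6. ICOS, PDCD1, CTLA4 and TIGIT stood below them without overlap between neighbours, at 9.60, 3.74, 1.51 and 0.164 TPM. The same 4 genes were lowest in the other lines with PMA, where ICOS averaged 5.17 TPM in dE9 and 2.22 TPM in WT.

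**Figure D1:**
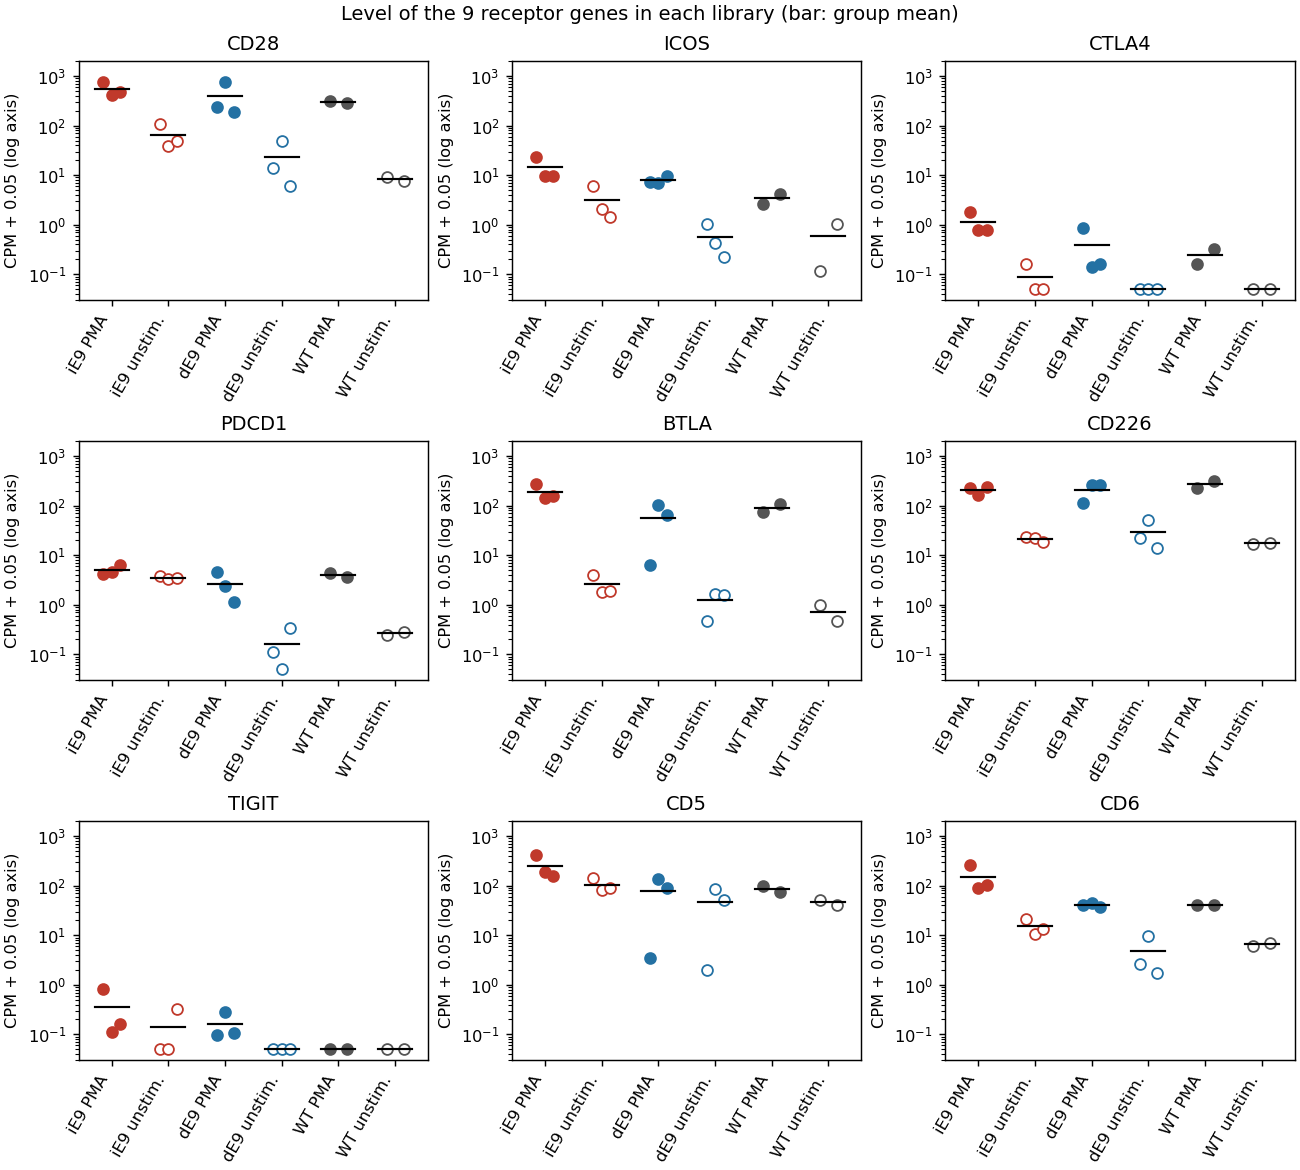
Level of each of the 9 genes in every library, in TMM-scaled CPM (counts scaled to library size) plus 0.05 on a log axis, with filled points for PMA, open points for unstimulated libraries and a bar at the group mean. BTLA spans the widest range between treatments, PDCD1 is near its PMA level in unstimulated iE9 libraries, and the dE9 libraries numbered 1 sit far below the rest for CD5.

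PMA was followed by higher CD28 in every line. In CPM (counts per 1000000 after TMM scaling of library sizes), CD28 stood at 771, 414 and 465 in iE9 with PMA, against 106, 38.8 and 49.3 in iE9 unstimulated. It stood at 239, 743 and 185 CPM in dE9 with PMA, against 13.7, 48.3 and 6.10 CPM in dE9 unstimulated. It stood at 309.9 and 285 CPM in WT with PMA, against 9.25 and 7.65 CPM in WT unstimulated. No PMA library overlapped an unstimulated one of any line, and the highest unstimulated value was in iE9. The log2 fold change, PMA over unstimulated, was 3.09 ± 0.67 in iE9 (SE, adjusted p = 0.00372), 4.09 ± 0.71 in dE9 (adjusted p = 0.000569) and 5.14 ± 0.92 in WT (adjusted p = 0.00157). These tests, and those below unless named otherwise, are edgeR's quasi-likelihood F test with Benjamini-Hochberg adjustment over all tested genes, and a gene with an adjusted p under 0.05 is said to have risen or fallen. In bulk RNA, more cells with a transcript and more transcript per cell cannot be told apart.

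ICOS, the inducible receptor next to CTLA4, was lower in level throughout. It stood at 23.6, 9.67 and 9.38 CPM in iE9 with PMA, against 5.97, 2.05 and 1.39 CPM in iE9 unstimulated. It stood at 7.17, 7.001 and 9.66 CPM in dE9 with PMA, against 0.986, 0.374 and 0.169 CPM in dE9 unstimulated. In WT the values were 2.57 and 4.17 CPM with PMA, against 0.0670 and 1.01 CPM unstimulated, where the lower library held 1 count and the other 17. PMA and unstimulated libraries did not overlap within any line. ICOS rose by 2.17 ± 0.68 in iE9 (log2 fold change ± SE, adjusted p = 0.0272) and by 3.97 ± 0.77 in dE9 (adjusted p = 0.00129). In WT the value was 2.60 ± 0.92 and missed the threshold (adjusted p = 0.0549). It was 1.74 (adjusted p = 0.299) without unstimulated WT library 1 and 5.52 (adjusted p = 0.0286) without unstimulated WT library 2. The iE9 call was lost without the unstimulated library 2 (adjusted p = 0.107), without the unstimulated library 3 (0.102) and without PMA library 1 (0.127).

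CTLA4, the inhibitory counterpart of CD28, was near the limit of detection. It had 28, 12 and 13 counts in iE9 with PMA, against 2, 0 and 0 in iE9 unstimulated. It had 18, 2 and 2 counts in dE9 with PMA and 2 and 5 in WT with PMA, against 0 in each of the unstimulated libraries of dE9 and WT. Counts were thus seen in all 8 PMA libraries and in 1 of 8 unstimulated ones. The summed counts, scaled for depth, gave a ratio of 27.5 in iE9 (95% counting interval 7.24 to 233). Against a floor of 3 counts per unstimulated library, the summed PMA counts stood 2.21-fold higher in dE9 and 1.04-fold higher in WT. In dE9, 18 of the 22 counts came from library 1, and the other libraries were below the floor, as was WT library 1. These values are thus no lower bounds for the lines. The interval covers counting error only, and the values against the floor take the PMA counts as exact. CTLA4 passed the filter on low counts through PMA libraries alone. The call passed in iE9 (adjusted p = 0.0212) and dE9 (adjusted p = 0.0228) and not in WT (adjusted p = 0.143). It was lost in iE9 without unstimulated library 2 or 3 or PMA library 1 (adjusted p from 0.0635 to 0.0791), and in dE9 without any 1 of the unstimulated libraries or PMA library 1 (0.0504 to 0.0882).

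PDCD1, which encodes PD-1, rose with PMA in dE9 and WT. It stood at 4.16, 4.62 and 6.35 CPM in iE9 with PMA, against 3.80, 3.20 and 3.48 CPM in iE9 unstimulated. It stood at 4.46, 2.30 and 1.07 CPM in dE9 with PMA, against 0.0616, 0 and 0.282 CPM in dE9 unstimulated, the last being 1, 0 and 5 counts. It stood at 4.28 and 3.57 CPM in WT with PMA, against 0.201 and 0.237 CPM in WT unstimulated. In CPM the treatments did not overlap in any line, but the gap was narrow in iE9. In TPM they overlapped in iE9, at 2.57 TPM in PMA library 1 against 2.96 TPM in unstimulated library 1. PDCD1 rose by 4.48 ± 0.73 in dE9 (log2 fold change ± SE, adjusted p = 0.000372) and by 4.12 ± 0.84 in WT (adjusted p = 0.0034). In iE9 the value was 0.53 ± 0.55, with a 95% interval from −0.64 to 1.70, and did not pass (adjusted p = 0.511). The difference between lines in this response did not pass by edgeR (adjusted p = 0.258 for iE9 minus dE9 and 0.492 for iE9 minus WT).

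BTLA, the receptor for TNFRSF14, had the largest fitted PMA response of the 7 genes for which a log2 fold change is given, in each line. It stood at 273, 145 and 157 CPM in iE9 with PMA, against 3.91, 1.78 and 1.88 CPM in iE9 unstimulated. It stood at 6.30, 101 and 65.1 CPM in dE9 with PMA, against 0.431, 1.59 and 1.52 CPM in dE9 unstimulated. It stood at 73.2 and 106 CPM in WT with PMA, against 0.938 and 0.415 CPM in WT unstimulated. The dE9 PMA library 1 was far below the other PMA libraries, though still above every unstimulated one. BTLA rose by 6.24 ± 0.81 in iE9 (log2 fold change ± SE, adjusted p = 8.84e-05), by 5.57 ± 0.81 in dE9 (adjusted p = 0.000165) and by 7.06 ± 1.10 in WT (adjusted p = 0.000633). Without both dE9 libraries numbered 1, the dE9 value was 5.73 (adjusted p = 1.92e-06).

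CD226, the activating receptor for PVR and NECTIN2, rose in the 3 lines, and its PMA libraries overlapped between lines. It stood at 228, 162 and 236 CPM in iE9 with PMA, against 23.6, 22.03 and 18.2 CPM in iE9 unstimulated. It stood at 111, 257 and 261 CPM in dE9 with PMA, against 22, 50.1 and 14.2 CPM in dE9 unstimulated. It stood at 231 and 312 CPM in WT with PMA, against 17.02 and 17.7 CPM in WT unstimulated. The lowest PMA library of any line, dE9 library 1, was above the highest unstimulated one. The log2 fold changes were 3.29 ± 0.42 in iE9 (SE, adjusted p = 7.42e-05), 2.86 ± 0.41 in dE9 (adjusted p = 0.000138) and 3.96 ± 0.53 in WT (adjusted p = 0.000214). TIGIT, its inhibitory counterpart, had 12, 1 and 2 counts in iE9 with PMA, against 0, 0 and 4 in iE9 unstimulated. It had 1, 5 and 1 counts in dE9 with PMA, against 0 in each unstimulated dE9 library, and 0 in each WT library of both treatments. A library at 0 allows up to 3 counts, which is 0.138 to 0.209 CPM across libraries, so no difference in TIGIT could be read at this depth.

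CD6, which binds ALCAM, rose in every line. It stood at 266, 90.7 and 102 CPM in iE9 with PMA, against 21.1, 10.8 and 13.2 CPM in iE9 unstimulated. It stood at 40.2, 45.6 and 37.6 CPM in dE9 with PMA, against 2.53, 9.77 and 1.69 CPM in dE9 unstimulated. It stood at 40.7 and 39.9 CPM in WT with PMA, against 6.17 and 7.05 CPM in WT unstimulated. With PMA, each iE9 library was above each library of the other lines, and no PMA library overlapped an unstimulated one. The log2 fold changes were 3.34 ± 0.54 in iE9 (SE, adjusted p = 0.000477), 3.12 ± 0.55 in dE9 (adjusted p = 0.000622) and 2.60 ± 0.65 in WT (adjusted p = 0.0113). The WT call was lost without either unstimulated WT library (adjusted p = 0.099 without library 1 and 0.0718 without library 2).

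CD5, a negative regulator of antigen receptor signalling, had the smallest fold in dE9 and WT, and its libraries stood far apart within dE9. It stood at 409.7, 192 and 154 CPM in iE9 with PMA, against 145, 82.1 and 89.7 CPM in iE9 unstimulated. It stood at 3.49, 137 and 90.3 CPM in dE9 with PMA, against 1.97, 84.1 and 51.7 CPM in dE9 unstimulated. It stood at 101 and 74.6 CPM in WT with PMA, against 52.3 and 41.3 CPM in WT unstimulated. The dE9 libraries numbered 1 were low in both treatments, so PMA and unstimulated libraries overlapped in dE9 and in no other line. Within every same-numbered pair CD5 was higher with PMA, by 1.63-fold to 2.83-fold over the 8 pairs. CD5 did not pass in any line, at log2 fold changes of 1.26 ± 0.97 in iE9 (SE, adjusted p = 0.366), 0.74 ± 0.97 in dE9 (adjusted p = 0.592) and 0.90 ± 1.19 in WT (adjusted p = 0.627). In dE9 and iE9, libraries with the same number deviated together across all genes, and they were taken as pairs on that ground. With the number as a block within the line, CD5 rose by 1.17 ± 0.13 in iE9 (adjusted p = 0.000116) and by 0.77 ± 0.14 in dE9 (adjusted p = 0.00163). Without both dE9 libraries numbered 1, and with no block, CD5 passed in iE9 (1.25, adjusted p = 0.0145) and not in dE9 (0.74, adjusted p = 0.204).

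**Figure D2:**
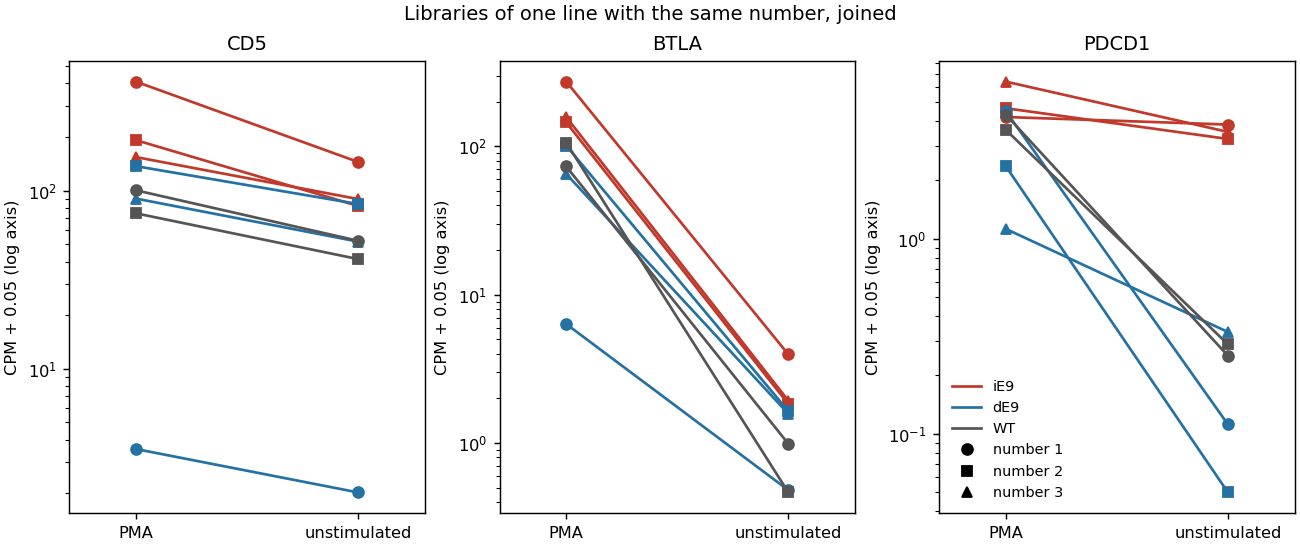
Level of CD5, BTLA and PDCD1 (CPM plus 0.05, log axis) with PMA and unstimulated, with the libraries of a line that carry the same number joined by a line. All 8 CD5 pairs are higher with PMA, with like slopes, although the dE9 pair numbered 1 lies far below, and the PDCD1 pairs are nearly level in iE9 and steep in dE9 and WT.

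Counted together, 6 of the 8 tested genes rose with PMA in iE9 (CD28, ICOS, CTLA4, BTLA, CD226 and CD6), 7 in dE9 (the same 6 and PDCD1) and 5 in WT (CD28, PDCD1, BTLA, CD226 and CD6). None fell. Over all tested genes, 27.1% were called in either direction in iE9, 33.5% in dE9 and 22.3% in WT, and 12.6%, 17.1% and 11.1% were called higher. In CPM, all 8 tested genes were higher with PMA without overlap in iE9 and WT, and all but CD5 in dE9. The same held for 20.1% (iE9), 22% (dE9) and 37.4% (WT) of all tested genes. In TPM, PDCD1 overlapped in iE9. For CTLA4 in dE9 and WT, the lowest PMA libraries held 2 counts against 0, within the 3 counts that a library at 0 allows. With the number as a block within lines, 7 of the 8 rose in iE9 and 8 in dE9, while the share of all tested genes called was 39.8% in iE9 and 45.2% in dE9. Without both dE9 libraries numbered 1, 6 rose in dE9, CTLA4 being lost (adjusted p = 0.141), 7 in iE9 with CD5 added, and 6 in WT with ICOS added (adjusted p = 0.0436). The median log2 fold change of the 8 was 3.19 in iE9, 4.03 in dE9 and 4.04 in WT, or 3.19, 3.54 and 3.28 with CTLA4 taken from its counts as above, beside medians of −0.01, 0.06 and 0.03 over all tested genes. Mitochondrial shares were also higher with PMA (5.21% to 12.8%, against 3.00% to 9.17% unstimulated), and their part in these differences was not tested.

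**Figure D3:**
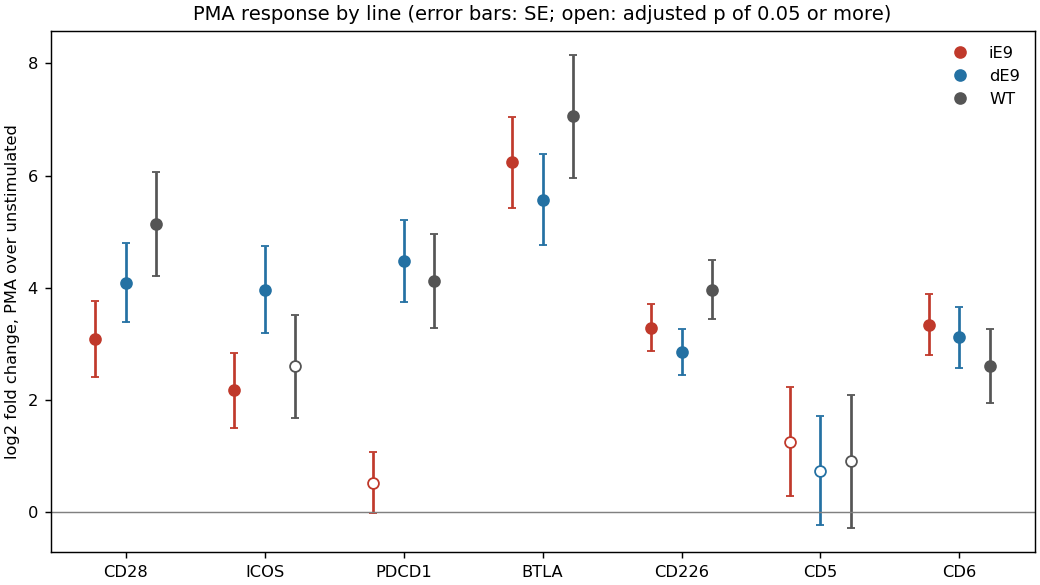
Log2 fold change of 7 genes, PMA over unstimulated, in iE9, dE9 and WT, with SE bars, filled points at an adjusted p under 0.05 and open points otherwise. BTLA lies highest in each line, PDCD1 is near 0 in iE9 and above 4 in dE9 and WT, and CD5 is open in the 3 lines. CTLA4 and TIGIT are left out for their low counts.

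Unstimulated cells of the edited lines differed in PDCD1. The 3 unstimulated iE9 libraries (3.20 to 3.80 CPM) all lay above the unstimulated dE9 libraries (0 to 0.282 CPM) and WT libraries (0.201 and 0.237 CPM). The log2 fold change was 4.89 ± 0.73 over dE9 (SE, adjusted p = 0.00394) and 3.95 ± 0.81 over WT (adjusted p = 0.0296). It was the only one of the 8 tested genes called by edgeR in either comparison, in which 1.72% (over dE9) and 1.38% (over WT) of all tested genes were called. DESeq2 called 3 of the 8 in each, adding ICOS and CD6 over dE9 and ICOS and CD28 over WT, and its share of all tested genes called was 4.8% over dE9 and 4.68% over WT. The call over dE9 held with each library left out in turn (adjusted p up to 0.0222). The call over WT was lost without WT library 1 (adjusted p = 0.342) or 2 (0.226), and without iE9 library 1 (0.0747), 2 (0.0514) or 3 (0.0683). On the first principal component the unstimulated iE9 libraries also lay between the other unstimulated libraries and the PMA libraries. The part of that shift in the PDCD1 difference was not tested. KLRD1, a natural killer marker, stood at 2.8 to 10.5 TPM in unstimulated iE9, against at most 0.69 TPM in unstimulated dE9 and 0.122 TPM in unstimulated WT. NCAM1, of the same list, was not higher there. It stood at 2.47 to 4.23 TPM in unstimulated iE9, against 4.01 to 5.13 TPM in dE9 and 4.81 and 4.92 TPM in WT. CD79A, a B cell marker, stood at 51.9 to 182 TPM in unstimulated iE9, against 8.31 to 32.6 TPM in unstimulated dE9 and 14.9 and 28.4 TPM in unstimulated WT. Their part was not tested either.

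Other receptors were higher in unstimulated iE9 libraries without passing the adjusted threshold. Over dE9, ICOS, BTLA and CD6, like PDCD1, did not overlap between the groups, while 11.4% of all tested genes were higher without overlap. Their log2 fold changes were 2.64 ± 0.75 for ICOS (SE, adjusted p = 0.0985), 1.07 ± 0.81 for BTLA (adjusted p = 0.582) and 1.67 ± 0.53 for CD6 (adjusted p = 0.137). CD28 had 1.503 ± 0.64 over dE9 (adjusted p = 0.28), where dE9 library 2, at 48.3 CPM, overlapped the iE9 range of 38.8 to 106 CPM. Over WT, 7 of the 8 tested genes were higher in each iE9 library (CD28, ICOS, PDCD1, BTLA, CD226, CD5 and CD6), as were 19.4% of all tested genes. CD28 had 2.94 ± 0.81 over WT (adjusted p = 0.0944) and ICOS 2.50 ± 0.88 (adjusted p = 0.181). The ICOS value was 1.62 without unstimulated WT library 1, which held 1 count, and 5.4 without library 2. BTLA, CD5, CD6 and CD226 had values from 0.29 to 1.92 (adjusted p from 0.372 to 0.798). CD226 was −0.44 ± 0.39 over dE9, with a 95% interval from −1.26 to 0.39.

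With PMA, no gene of the 8 was called between libraries labelled iE9 and those of dE9 or WT by edgeR, where 2.61% and 1.12% of all tested genes were called. At an unadjusted p under 0.05 there were 2 in each comparison, as were 19.1% (over dE9) and 14.2% (over WT) of all tested genes. These were BTLA and CD6 over dE9, and ICOS and CD6 over WT. CD6 stood at 90.7 to 266 CPM in iE9, against 37.6 to 45.6 CPM in dE9 and 39.9 and 40.7 CPM in WT. Its log2 fold change was 1.89 ± 0.50 over dE9 (SE, adjusted p = 0.0606) and 1.93 ± 0.59 over WT (adjusted p = 0.142). DESeq2 called CD6 in both comparisons (adjusted p = 0.00536 over dE9 and 0.0202 over WT), with 7.23% and 4.05% of all tested genes called. Over dE9, limma voom called it too (adjusted p = 0.0217), with 3.44% of all tested genes. BTLA, CD5 and CD6 did not overlap between iE9 and dE9, and 9.69% of all tested genes were higher without overlap. Over WT, CD28, ICOS, CTLA4, BTLA, CD5 and CD6 did not overlap and were higher in iE9, as were 19.9% of all tested genes. BTLA had 1.74 ± 0.64 over dE9 (adjusted p = 0.16) and CD5 1.71 ± 0.98 (adjusted p = 0.368), both with dE9 library 1 lowest. CD226 had −0.01 ± 0.38 over dE9, with a 95% interval from −0.81 to 0.80.

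**Figure D4:**
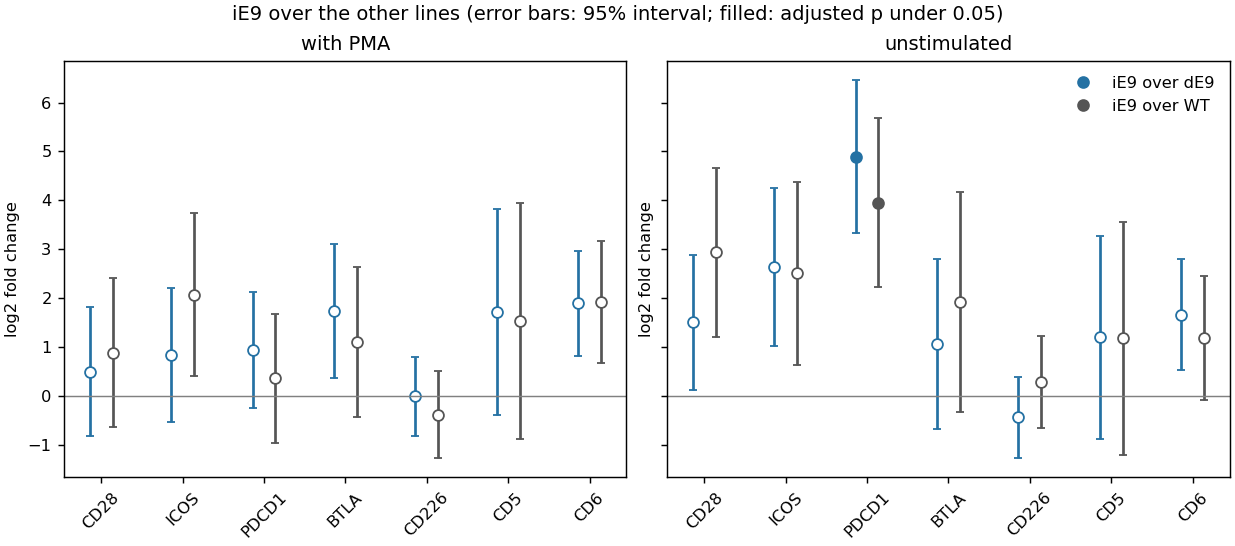
Log2 fold change of 7 genes in iE9 over dE9 and over WT, with PMA and unstimulated, with 95% intervals and filled points at an adjusted p under 0.05. PDCD1 in unstimulated cells is the only filled gene, and CD226 lies near 0 in each comparison.

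Between dE9 and WT, none of the 8 genes was called in either treatment by edgeR, none had an unadjusted p under 0.05, and 0% of all tested genes were called. DESeq2 and limma voom called none of the 8 either. CD28 had 0.39 ± 0.70 in dE9 over WT with PMA (log2 fold change ± SE) and 1.43 ± 0.76 unstimulated, and PDCD1 had −0.58 ± 0.61 with PMA and −0.95 ± 0.93 unstimulated. In libraries with PMA, ICOS was higher in each dE9 library (7.001 to 9.66 CPM) than in either WT library (2.57 and 4.17 CPM), as were 6.37% of all tested genes, and its log2 fold change was 1.23 ± 0.76.

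The difference between lines in the PMA response was tested directly. No gene of the 8 passed by edgeR in any of the 3 differences, and 0% of all tested genes did. PDCD1 alone had an unadjusted p under 0.05, in 2 of them. Its difference in log2 fold change was −3.95 ± 0.91 (SE) for iE9 minus dE9 (adjusted p = 0.258) and −3.59 ± 0.99 for iE9 minus WT (adjusted p = 0.492). DESeq2 called both (−4.03, adjusted p = 0.0055, and −3.62, adjusted p = 0.0398), with 0.753% and 0.343% of all tested genes. For CD28 the difference was −1.003 ± 0.89 for iE9 minus dE9 (adjusted p = 0.893) and −2.05 ± 1.02 for iE9 minus WT (adjusted p = 0.926). With the number as a block within each line, the CD28 difference passed for iE9 minus WT (−1.97, adjusted p = 0.0303), although the numbers were not shown to pair the WT libraries. The line comparisons share libraries with the PMA comparisons, so their values are not independent of them.

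Transcript models were compared within each gene. CD28-201, the leading CD28 transcript, made up 62.4% ± 4.28 of CD28 TPM in PMA libraries and 70.1% ± 11.1 in unstimulated libraries (SD, n = 8 each). The leading CD226 transcript made up 49.1% ± 4.24 of CD226 TPM with PMA and 53.4% ± 11.5 unstimulated, CD5-201 84.4% ± 11.04 and 85.2% ± 10.9, and CD6-201 82.8% ± 4.98 and 84.8% ± 12.1. None of these 4 shares passed in a two-sided exact permutation test within lines (2400 arrangements, p = 0.154 for CD28, 0.35 for CD226, 0.686 for CD5 and 0.79 for CD6). For exon 5 of CD6, only the TPM of models that hold or span the exon was counted. The share of it without exon 5 was 3.00% ± 2.72 with PMA and 5.91% ± 12.4 unstimulated (p = 0.762 in the same exact test). After Benjamini-Hochberg adjustment the exact p was 0.771 for CD28 and 0.79 for the other shares, over 5 shares. For CD28 the p was 0.0333 in the same exact test without WT unstimulated library 1 and 0.0425 without WT PMA library 1. Over the 6 same-numbered pairs of iE9 and dE9, an exact two-sided sign-flip permutation test gave p = 0.0312 for CD28-201, the smallest it can give, at a share lower with PMA in 6 of 6 pairs by 11.4 percentage points on average (adjusted p = 0.156 over the 5 shares). The other shares had a p of 0.281 or more in that exact test. WT unstimulated library 2 alone stood at 35.9% without exon 5. Shares come from assignment of reads among models of unequal length, and were compared only for genes with at least 20 counts in a library.

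BTLA-202 lacks exon 3 of the full-length model BTLA-201, which encodes the membrane-spanning stretch. In the 8 PMA libraries BTLA-202 held 5.42% to 15.96% of the TPM of BTLA-201 and BTLA-202 together (median 7.97%), the highest share being in dE9 library 1. By estimated counts the median share was 1.79%, because BTLA-202 is the shorter one. Unstimulated libraries held 7 to 72 BTLA counts. In the 5 of them with at least 20 counts the share was 0% in 3, 20.9% in dE9 library 3 and 33.7% in iE9 library 2, and no test was run. The exon (chr3:112471212-112471355, GRCh38, minus strand, 144 bases) is shown in capitals, with 20 bases of exons 2 and 4 in lower case, since the junction of the lower-case ends is what marks the shorter model.
BTLA exon 3: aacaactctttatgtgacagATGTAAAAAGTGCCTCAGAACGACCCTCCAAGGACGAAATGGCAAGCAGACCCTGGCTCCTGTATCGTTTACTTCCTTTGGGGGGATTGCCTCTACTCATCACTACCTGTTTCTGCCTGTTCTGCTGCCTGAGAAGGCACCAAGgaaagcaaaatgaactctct

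Genes that work with the receptors were read from lists of ligands, signalling partners and other receptors. Of 13 ligands, 6 were tested, and 2 rose with PMA in iE9, 3 in dE9 and 2 in WT, while none fell (median log2 fold changes of 1.26, 1.497 and 1.01). The share of all tested genes that rose was 12.6% in iE9, 17.1% in dE9 and 11.1% in WT. TNFRSF14, the ligand of BTLA, rose by 2.56 ± 0.36 in iE9 (log2 fold change ± SE, adjusted p = 0.000171), by 3.55 ± 0.38 in dE9 (adjusted p = 1.64e-05) and by 3.60 ± 0.47 in WT (adjusted p = 0.000208). ALCAM, the ligand of CD6, rose by 1.74 ± 0.38 in iE9 (adjusted p = 0.0039), by 1.54 ± 0.38 in dE9 (adjusted p = 0.00626) and by 1.51 ± 0.47 in WT (adjusted p = 0.0302). NECTIN2, a ligand of CD226 and TIGIT, rose in dE9 (1.68 ± 0.49, adjusted p = 0.0163). It had a like value in WT (1.62 ± 0.60, adjusted p = 0.067) and a smaller one in iE9 (0.81 ± 0.51, adjusted p = 0.257), neither called. PVR, their other ligand, was not called in any line, at −0.21 in iE9, −0.23 in dE9 and −0.44 in WT. BTLA and CD6 thus rose in each line together with a ligand of each.

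All 21 signalling partners were tested, and 10 rose in iE9, 11 in dE9 and 12 in WT with PMA, with medians of 0.72, 0.82 and 1.09. Beside these counts, 12.6% of all tested genes rose in iE9, 17.1% in dE9 and 11.1% in WT. CSNK2A1, a subunit of casein kinase 2, which binds CD5, was the 1 that fell in each line, by 0.56 ± 0.16 in iE9 (adjusted p = 0.0155), by 0.57 ± 0.16 in dE9 (adjusted p = 0.0116) and by 0.56 ± 0.19 in WT (adjusted p = 0.0486). LCP2 (SLP-76), an adaptor that CD6 recruits, rose by 1.92 ± 0.22 in iE9, 2.52 ± 0.22 in dE9 and 2.85 ± 0.28 in WT (adjusted p = 3.45e-05, 4.32e-06 and 2.26e-05). CBLB, a ubiquitin ligase that raises the need for CD28, rose by 1.80 ± 0.28, 2.11 ± 0.28 and 2.20 ± 0.35 in iE9, dE9 and WT (adjusted p = 0.000361, 9.25e-05 and 0.000756). RASA1, a Ras GTPase-activating protein, rose by 2.74 ± 0.29 in iE9, 2.35 ± 0.28 in dE9 and 1.83 ± 0.34 in WT (adjusted p = 1.83e-05, 3.82e-05 and 0.00199).

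Of 18 other costimulatory or inhibitory receptors, 15 were tested, and 3 rose in iE9, 7 in dE9 and 5 in WT with PMA, with medians of 0.84, 1.53 and 1.28. Over all tested genes, 12.6% rose in iE9, 17.1% in dE9 and 11.1% in WT, and 27.1%, 33.5% and 22.3% were called in either direction. CD40LG, the ligand of CD40, HAVCR2 (TIM-3) and CD96, another receptor for PVR, rose in all 3 lines. CD40LG had 4.47 ± 0.52 in iE9, 4.93 ± 0.54 in dE9 and 5.52 ± 0.68 in WT (log2 fold change ± SE, adjusted p = 3.98e-05, 1.96e-05 and 0.000134). TNFRSF8 (CD30) fell by 1.65 ± 0.58 in iE9 (adjusted p = 0.0451) and by 1.74 ± 0.58 in dE9 (adjusted p = 0.0315), and TNFRSF4 (OX40) fell by 2.15 ± 0.75 in iE9 (adjusted p = 0.0459). Between iE9 and dE9, none of the tested genes of the 3 lists was called unstimulated, and 1 was called with PMA. Of all tested genes, 1.72% were called unstimulated and 2.61% with PMA. The 1 called was HAVCR2, higher in iE9 by 1.71 ± 0.37 (adjusted p = 0.0281).

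Marker lists of other cell types were read beside these values. The 8 T cell markers summed to 3018 to 4979 TPM with PMA and 1777 to 3153 TPM unstimulated. Of the B cell list, CD79A was the most abundant, at 304 to 538 TPM in iE9 with PMA, against 12.3 to 202 TPM in dE9 and 45.3 and 81.9 TPM in WT with PMA. The B cell genes MS4A1 and PAX5 stayed at or below 1.18 TPM, and CD79B at or below 4.62 TPM. The 6 myeloid markers summed to at most 1.62 TPM and the 5 epithelial ones to at most 2.89 TPM. The 6 natural killer markers summed to 4.05 to 14.8 TPM. Among them, KLRD1 reached 10.5 TPM, NCAM1 stood at 2.47 to 11.4 TPM and FCGR3A at or below 0.0494 TPM. Of the erythroid list, HBA1 and HBA2 reached 52.0 and 49.7 TPM with HBB at or below 0.478 TPM, and of the fibroblast or endothelial list PECAM1 reached 69.6 TPM with VWF at or below 0.0243 TPM.

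Across the 16 libraries, which share the PMA contrast, log2 CPM of the 8 tested genes correlated with that of their companions to unequal degrees. Pearson's r was 0.94 between CD28 and CD6, 0.93 between BTLA and CD226 and 0.92 between CD28 and BTLA, and it was 0.25 to 0.56 between CD5 and each of the others. CD5 and its neighbour CD6 had r = 0.54, and CD28 had 0.88 with ICOS and 0.77 with CTLA4. Among all tested genes, the profile most like CD28 was HLA-E (r = 0.98), the one most like BTLA was SGK1 (r = 0.98), the one most like PDCD1 was TUBB3 (r = 0.96) and the one most like CD5 was GGT1 (r = 0.93). Depth and treatment are common to these points, and the coefficients are descriptions only.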

How the data were processed

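RNA-seq of 16 libraries was read from transcript tables holding estimated counts, effective lengths and TPM, deposited by the authors; Salmon, DESeq2 and hg38 are named per the submitters' processing notes, with versions and roles not given in the sources used here. All transcripts matched GENCODE release 29. Gene values are rounded sums of the estimated counts over transcripts. Totals per library were 14536521 to 21888846, which limits precision for genes with few counts. The deposited table of TPM per gene served as a check, and 0 of its columns went unused. Replicates differed by more than sampling noise (chi-square per degree of freedom at least 7.549).

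The filter filterByExpr kept 18073 of 33304 genes with a count. edgeR 4.0.16 (R 4.3.3) fitted TMM-scaled counts with 1 coefficient per group over all 16 libraries (common biological coefficient of variation 31.8%), using the quasi-likelihood F test with Benjamini-Hochberg adjustment at 0.05. The SE is the log2 fold change over the root of F, and 95% intervals use a t quantile. Alternatives used DESeq2 1.42.0, limma 3.58.1, other filters and scalings, a replicate block and leaving out each library. The fit was tested on simulated data. Python 3.11.15, numpy 2.4.6, pandas 2.3.3 and scipy 1.17.1 did the rest.

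Same-numbered libraries of a line, whose numbers come from the labels, deviated together over genes in iE9 (r = 0.44, 0.23 and 0.19) and dE9 (0.30, 0.30 and 0.24), and the number was taken to pair them there. Libraries with unlike numbers had r from −0.31 to 0.15 in iE9 and from −0.19 to −0.04 in dE9. The 0.15, for iE9 PMA library 3 with unstimulated library 2, was close to the 0.19 of the pair numbered 3. The pairing was read from these same data, and the blocked and paired p-values rest on it. In WT, with 2 pairs, r was 0.07. The receptors and the lists were chosen with earlier results of these data known. Named genes were all 9 receptors and, from each list, up to 4 called genes with the smallest adjusted p, besides the most alike gene by correlation. CSNK2A1, PVR, NECTIN2 in iE9 and WT, TNFRSF4, TNFRSF8 in dE9, CD79A and NCAM1 were named after their values were seen. Leaving out both dE9 libraries numbered 1, the paired test of transcript shares, and the BTLA share by estimated counts, were alternatives chosen after seeing the data. Some genes of the lists are not reported here.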

Additional observations from a re-analysis of the deposited data

How the results depend on the processing

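Counts of receptors called with PMA over unstimulated stayed within 1.5 times under every alternative run (4 to 6 in iE9, 6 to 7 in dE9 and 4 to 6 in WT with 1 library left out). Between lines they moved. In unstimulated iE9 over dE9, edgeR called 1 (1.72% of all tested genes), DESeq2 3 (4.8%), edgeR with no low-count filter 6 (3.96%), and 1 to 3 with 1 library left out. In unstimulated iE9 over WT, edgeR called 1 (1.38%), DESeq2 3 (4.68%), no filter 6 (3.66%), the groups compared alone 2 (2.02%), limma voom 0 (0.797%), the effective-length offset 0 (0.869%), and 0 to 2 with 1 library left out. In iE9 over dE9 with PMA the counts were 0 by edgeR, 1 by DESeq2 (7.23%), 1 by limma voom (3.44%), 3 with no filter (5.41%) and 0 to 1 with 1 library left out; over WT, 1 by DESeq2 (4.05%), 5 with no filter (3.49%) and 0 to 1. In unstimulated dE9 over WT, no filter gave 1 (0.396%). For the PMA response of iE9 minus dE9, DESeq2 gave 1 (0.753%) and no filter 1 (1.44%). For that of iE9 minus WT, DESeq2 gave 1 (0.343%), no filter 2 (0.877%) and the groups compared alone 1 (0.173%). The cause was not tested.

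With the replicate number as a block, 2 receptors were called in unstimulated iE9 over WT (1.62% of all tested genes). The block within lines called 1 for the response of iE9 minus WT (0.194% of all tested genes). Beside CD5, the block within lines changed no other call on PMA within iE9 or dE9. In WT, where the pairing is not established, the block within the line called 7 receptors, with CD5 at 0.90 and ICOS at 2.87. It also called 36.5% of all tested genes there, against 22.3% without a block. CD226 in iE9 over dE9 with PMA was 0.0537 under the block and 0.073 by limma voom, and −0.31 to 0.18 with 1 library left out; unstimulated it was −0.76 to 0.23. PDCD1 in iE9 over WT with PMA was −0.0146 under the length offset. CD28 in dE9 over WT with PMA was −0.48 to 0.73 with 1 library left out, its response in dE9 minus WT −1.94 to 0.16, and that of PDCD1 −0.27 to 2.15, or −0.50 without both dE9 libraries numbered 1.

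Transcript share differences, PMA minus unstimulated in percentage points, ranged with 1 library left out from −8.79 to −3.78 for CD28, −6.83 to −1.10 for CD226, −5.16 to 0.766 for CD5, −7.43 to 4.18 for CD6 and −10.1 to 1.86 for CD6 without exon 5. They were 0.384 for CD226 by estimated counts, 0.137 for CD5 at a minimum of 50 counts and 3.38 for CD6 over protein-coding models. Over the pairs of iE9 and dE9 they were −11.4 for CD28, 3.50 for CD5 and 0.748 for CD6 without exon 5. Depth limits CTLA4 and TIGIT in all libraries, and PDCD1 and ICOS in unstimulated ones.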
